A study of Homo sapiens with 2 samples.

Results

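The genes described here are 10 members of the G1 cell cycle pathway: the D cyclins CCND1, CCND2 and CCND3 with their kinases CDK4 and CDK6, the E cyclins CCNE1 and CCNE2 with their kinase CDK2, the inhibitor CDKN1B (p27) and the retinoblastoma protein gene RB1. They were taken by name and matched by gene symbol to 10 of the 57820 genes counted. The libraries came from 1 group of 2 replicates, total RNA of T47D cells with ESR1 Y537S that had received 25 nM of a control siRNA (Sigma-Aldrich SIC007) in hormone-deprived medium. T47D is an established line of estrogen receptor-positive luminal breast cancer, and Y537S, a substitution in the hormone-binding part of the estrogen receptor, makes the receptor active when no hormone is present. The labels do not say how the change was introduced, whether the line was 1 clone, or whether the replicates were separate cultures. The columns named their cell line, receptor residue and replicate number but not the siRNA, and the match to the samples rests on those 3 parts. With 1 group, no comparison between conditions was made: the levels below describe this control state, and each test sets gene against gene or library against library.

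D cyclins are made in response to mitogens and, in breast epithelium, to estrogen. They activate CDK4 and CDK6, which begin to phosphorylate RB1, and CDK2 with an E cyclin completes this, so that RB1 releases the E2F transcription factors and S phase genes are transcribed. CDKN1B binds and blocks cyclin E with CDK2, and is itself destroyed at the entry into S phase. CCND1 and the CDK4/6 kinases are central to luminal breast cancer, where CDK4/6 inhibitors are given together with endocrine therapy and need RB1 to act.

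Reads on genes numbered 41370662 in replicate 1 and 37198274 in replicate 2. Of the 6 luminal marker genes all 6 (ESR1, FOXA1, GATA3 and the keratins KRT8, KRT18 and KRT19) reached 1 CPM in each library. CPM is a read count scaled to the total of its own library. KRT19 averaged 1385 ± 19.6 TPM, KRT8 464 ± 78.0 TPM and KRT18 199 ± 22.3 TPM (SD, n = 2 libraries, as for every SD below). TPM is a level per exon length, scaled to 1 library. None of 6 basal or mesenchymal genes (KRT5, KRT14, TP63, VIM, ZEB1, CDH2) reached that threshold in both libraries; TP63, with 61 and 30 reads, did in replicate 1 alone. The summed level of this list was 0.551 TPM in replicate 1 and 0.380 TPM in replicate 2. None of 5 fibroblast or endothelial genes did, with sums of 0.151 and 0.153 TPM, and DCN and KDR had no read in either library. These sums held COL1A2, LUM and VWF. Among immune markers, CD3E and CD68 had no read, LYZ had 3 and 5 reads, and PTPRC had 0 and 17.

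Of the 10 genes 9 were detected, that is, at 1 CPM or more in both libraries, against 60.9% of all 19263 protein-coding genes. The exception was CCND2. On whole exon lengths the levels ran in the order CCND1, CDK4, CDK2, CDKN1B, CCND3, RB1, CCNE2, CCNE1, CDK6 and CCND2, from 79.6 ± 2.62 TPM to no read at all. Part of this order depends on the length used. With exon bases shared with other genes left out, CDK4 averaged 88.8 TPM and CCND1 88.7 TPM. CCNE2 then averaged 22.5 TPM, above CDKN1B, CCND3 and RB1. The median over the 10 genes was 18.4 ± 2.70 TPM, and the median over the detected protein-coding genes was 9.25 TPM. In bulk RNA, fewer cells that express a gene and less of its RNA per cell cannot be told apart.

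**Figure D1:**
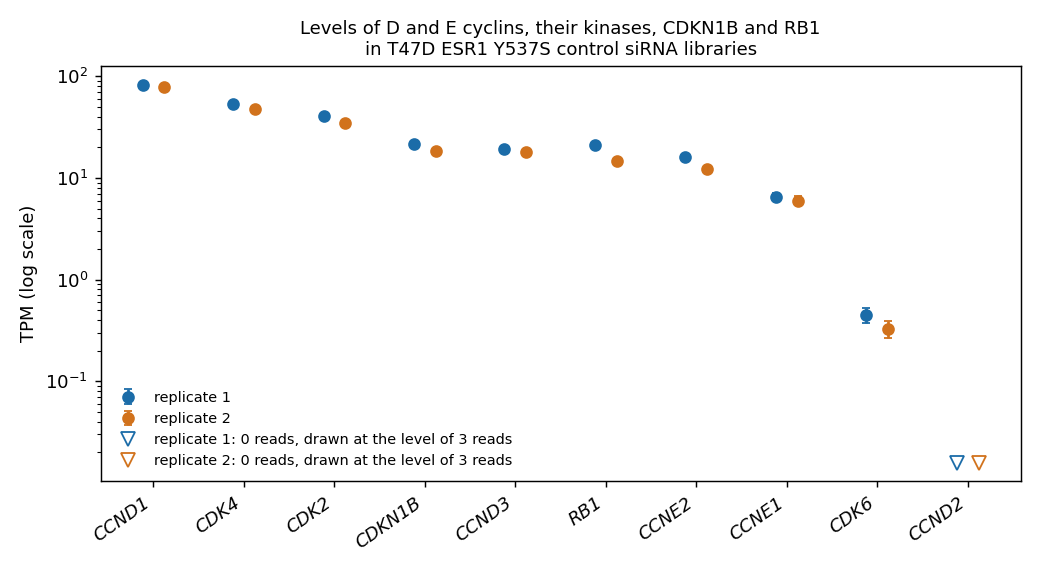
Level of each of the 10 genes in TPM on a log axis, for replicate 1 (blue) and replicate 2 (orange) of the T47D ESR1 Y537S control siRNA libraries. Bars are exact 95% counting intervals, mostly smaller than the points, and open triangles mark CCND2, drawn at the level of 3 reads. On the whole exon lengths drawn here CCND1 stands highest at 81.4 and 77.7 TPM and CDK6 near the bottom at 0.446 and 0.323 TPM.

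Among the D cyclins, CCND1 was the dominant transcript. CCND1 (ENSG00000110092.3, hg19 chr11:69455855-69469242, plus strand, 4830 exon bases) encodes cyclin D1, an estrogen-responsive gene in breast cells. It had 10424 reads in replicate 1 and 9955 in replicate 2, or 81.4 and 77.7 TPM. That places it higher than 96.8% of protein-coding genes. Both libraries were above every other member on whole exon lengths.

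CCND3 (ENSG00000112576.8, hg19 chr6:41902671-42018095, minus strand, 5300 exon bases) encodes cyclin D3, the D cyclin best known from blood cells. It had 2736 and 2539 reads, or 19.5 TPM in replicate 1 and 18.1 TPM in replicate 2. CCND1 stood 4.18-fold above CCND3 in replicate 1 (exact conditional binomial 95% interval 4.01 to 4.36) and 4.30-fold in replicate 2 (4.12 to 4.50), a mean log2 ratio of 2.08 ± 0.03. A ratio is called here when both intervals leave out equality on the same side and its mean exceeds the 95th percentile of the absolute log2 differences between the libraries for genes in the CPM range of the lower gene. That bound was 0.31 for CCND3, so the ratio was called. The bound holds the spread of 1 gene between libraries and no error between genes, such as that of exon length, so that most pairs pass it.

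CCND2 (ENSG00000118971.3, hg19 chr12:4382938-4414516, plus strand, 7157 exon bases) encodes cyclin D2 and had no read in either library. A count of 0 allows up to 3 reads, or 0.0158 TPM in each library. With CCND2 set at that floor of 3 reads per library, CCND1 was 5149-fold higher in replicate 1 and 4917-fold in replicate 2. CCND3 was 1232-fold and 1143-fold higher. The lower limits of the exact 95% intervals were 4186 and 3998 for CCND1, and 1001 and 929 for CCND3. The lack of reads did not extend to the whole region. Among 12 other protein-coding genes within 500 kb of CCND2, 5 were detected and 4 had no read. RAD51AP1, a homologous recombination factor, had 611 and 472 reads, C12orf4 had 519 and 466, and TIGAR, a regulator of glycolysis, had 137 and 118.

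Summed over the 3 genes, D cyclin RNA came to 98.4 ± 3.62 TPM. CCND1 made up 80.9% ± 0.313 of it and CCND3 19.1% ± 0.313. Within 500 kb of CCND1, 3 of 6 other protein-coding genes were detected and none was at a higher level. The fibroblast growth factor genes FGF19, FGF4 and FGF3, its neighbours in the 11q13 region, had no read in either library, while ANO1, a chloride channel gene, averaged 2.15 ± 0.02 TPM and LTO1 6.04 ± 0.24 TPM.

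Of the kinases that D cyclins activate, CDK4 made up nearly all the RNA. CDK4 (ENSG00000135446.12, hg19 chr12:58141510-58149796, minus strand, 3168 exon bases) had 4463 and 4010 reads, or 53.2 TPM in replicate 1 and 47.7 TPM in replicate 2. CDK6 (ENSG00000105810.5, hg19 chr7:92234235-92465908, minus strand, 12260 exon bases) had 145 and 105 reads. Its level was 0.446 TPM in replicate 1 (exact 95% interval 0.377 to 0.525) and 0.323 TPM in replicate 2 (0.264 to 0.391). CDK6 was detected, at 3.50 and 2.82 CPM, yet only 1.54% of the detected protein-coding genes lay lower per exon length.

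CDK4 exceeded CDK6 by 119-fold in replicate 1 (interval 101 to 142) and by 148-fold in replicate 2 (122 to 181), a mean log2 ratio of 7.05 ± 0.22. The exon length of CDK6 carries part of this: on reads alone, not scaled to length, the ratio was 30.8-fold and 38.2-fold. With exon bases shared with other genes left out of the lengths, which concerns CDK4 most, it was 208-fold and 259-fold. CDK4 thus took 99.2% ± 0.113 of the summed TPM of both kinases. The intervals of CDK4 and CDK6 did not come near each other in either library. Around CDK6, 10 of 14 other protein-coding genes within 500 kb were detected, and each of those 10 lay above CDK6. ANKIB1, which encodes a ubiquitin ligase, averaged 18.4 ± 3.64 TPM and KRIT1, a gene of vascular malformations, 12.6 ± 2.12 TPM. CDK4 lies in a gene-dense region where 21 of 29 neighbours were detected. On whole exon lengths 4 of the neighbours were higher than CDK4. Among these 4, DCTN2, a dynactin subunit gene, averaged 70.3 ± 7.86 TPM. OS9, a gene of protein quality control in the endoplasmic reticulum, averaged 65.6 ± 0.02 TPM. With shared exon bases left out of its length CDK4 averaged 88.8 TPM, above both of these genes on their whole lengths.

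The start regions of this high and low pair are shown because both kinases bind the same cyclins. RefSeq windows on GRCh38.p14 run from 250 bases before to 50 bases after a listed start, 300 bases in all. Of the 10 genes 6 had 9 such windows, some of them with a start inside the gene. CCND1, CCND2, CCNE2 and CDK2 were not among them. Capitals mark GGGCGG, the GC box of the Sp1 factors, and CACGTG, the E-box bound by MYC among others, on either strand. The E-box was added to the search after the windows had been seen. The CDK4 window is chr12:57752261-57752560 and that of CDK6, the upstream one of its 2, is chr7:92836524-92836823, both on the minus strand and both printed 5′ to 3′ along the gene.
CDK4: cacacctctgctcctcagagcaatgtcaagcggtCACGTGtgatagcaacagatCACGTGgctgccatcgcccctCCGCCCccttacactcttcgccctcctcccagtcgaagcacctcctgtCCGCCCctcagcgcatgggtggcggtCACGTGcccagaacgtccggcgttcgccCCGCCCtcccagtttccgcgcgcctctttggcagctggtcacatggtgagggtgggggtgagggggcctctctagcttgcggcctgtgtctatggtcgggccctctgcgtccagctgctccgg
CDK6: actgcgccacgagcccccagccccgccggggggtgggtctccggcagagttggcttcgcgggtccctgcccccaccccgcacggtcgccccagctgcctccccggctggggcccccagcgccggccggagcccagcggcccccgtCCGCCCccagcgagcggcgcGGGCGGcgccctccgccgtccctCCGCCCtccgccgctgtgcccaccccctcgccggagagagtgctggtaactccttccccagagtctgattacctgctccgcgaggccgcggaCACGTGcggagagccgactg
The CDK4 window held 3 GC boxes and 3 E-boxes, the E-boxes at positions -216, -196 and -101 from the start. The CDK6 window held 3 GC boxes and 1 E-box. GC boxes of these letters stood in 45.0% of all 35116 windows and the E-box in 7.26%. G and C made up 66.0% of the CDK4 window and 78.0% of the CDK6 window, against a median of 58.7% over all windows. A match is a description of letters and no sign of binding.

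The E cyclins were lower than CCND1, and the more abundant of them was CCNE2. CCNE1 (ENSG00000105173.9, hg19 chr19:30302805-30315215, plus strand, 2568 exon bases) had 441 and 407 reads, or 6.48 TPM in replicate 1 and 5.98 TPM in replicate 2. CCNE2 (ENSG00000175305.12, minus strand, 4399 exon bases) had 1861 and 1438 reads, or 16.0 and 12.3 TPM. In both libraries CCNE1 lay under CCNE2, and the ranges of the 2 genes did not overlap. The ratio of CCNE1 to CCNE2 was 0.406 in replicate 1 (interval 0.365 to 0.451) and 0.485 in replicate 2 (0.433 to 0.542), a mean log2 ratio of -1.17 ± 0.18, which was called. CCNE2 supplied 69.2% ± 2.67 of the summed E cyclin level of 20.4 ± 2.93 TPM. CCNE2 shares many exon bases with another gene, and with those left out of its length the mean log2 ratio was -1.84 and its share 78.2% ± 2.14. CCND1 stood above CCNE1 by 3.65 on the log2 scale in replicate 1 and by 3.70 in replicate 2, a mean of 12.8-fold that was also called. CCND1 alone made up 67.1% ± 1.49 of the RNA of all 5 D and E cyclins.

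CDK2 (ENSG00000123374.6, hg19 chr12:56360553-56366568, plus strand, 3894 exon bases), the kinase that E cyclins activate, had 4163 and 3572 reads, or 40.3 TPM in replicate 1 and 34.6 TPM in replicate 2. The 2 E cyclins together thus lay below their kinase in both libraries. CCNE1 was at 0.161 of the CDK2 level in replicate 1 and at 0.173 in replicate 2, a mean log2 ratio of -2.59 ± 0.07, which was called. The opposite held for the D cyclin arm: CCND1 exceeded CDK4 by 1.53-fold in replicate 1 and by 1.63-fold in replicate 2. That ratio, 0.66 ± 0.06 on the log2 scale, was called with whole exon lengths but came to -1.7e-05 once the exon bases shared with other genes were left out of the lengths, so it is not established which of CCND1 and CDK4 was higher.

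CDK2 was lower than CDK4, at 0.759 of its level in replicate 1 and 0.725 in replicate 2. The mean log2 ratio of -0.43 ± 0.05 was called, with unshared exon bases it was -0.98, and on reads alone it was -0.13 and was not called. CDK2 was lower than CDK1, the mitotic kinase, at 0.349 of its level in replicate 1 and 0.377 in replicate 2. CDK1 averaged 104 ± 16.9 TPM, and the mean log2 ratio of -1.46 ± 0.08 was called.

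The window at the CCNE1 start, the richest in GC boxes of the 9, is chr19:29811741-29812040 on the plus strand of GRCh38.p14, with the GC box in capitals.
CCNE1: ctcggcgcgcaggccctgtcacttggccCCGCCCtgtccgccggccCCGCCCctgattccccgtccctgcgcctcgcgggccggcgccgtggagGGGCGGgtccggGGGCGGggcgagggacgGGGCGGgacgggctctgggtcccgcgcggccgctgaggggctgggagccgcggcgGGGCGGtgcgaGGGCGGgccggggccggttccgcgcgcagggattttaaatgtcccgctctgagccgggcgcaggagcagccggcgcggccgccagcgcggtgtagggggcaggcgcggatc
It held 7 GC boxes and no E-box, and G and C made up 81.0% of it. None of the 9 windows of the 10 genes held an E2F site as spelled TTTCGCGC, TTTGGCGC, TTTCCCGC or TTTGCCGC on either strand, letters that stood in 3.31% of all windows. None held the cyclic AMP element TGACGTCA (1.85% of windows), the TATA box TATAAA (11.5%) or the estrogen response element (0.057%). This says only that these letters are not in these windows.

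CDKN1B (ENSG00000111276.6, hg19 chr12:12867992-12875305, plus strand, 2811 exon bases) had 1606 and 1383 reads, or 21.6 TPM in replicate 1 and 18.6 TPM in replicate 2. It was above each of 14 other protein-coding genes within 500 kb, of which 10 were detected. Its closest relative in function, CDKN1A (p21), a p53 target that blocks the same kinases, had 1435 and 1492 reads, or 18.1 and 18.9 TPM. CDKN1B stood 1.19-fold above CDKN1A in replicate 1 (interval 1.11 to 1.28) and at 0.984 of it in replicate 2 (0.914 to 1.06). The mean log2 ratio of 0.11 ± 0.19 was not called, and the order of these 2 inhibitors was not resolved. CDKN1C (p57), an imprinted inhibitor of the same family, had 8 and 11 reads and was not detected. CDKN1B exceeded CDKN1C by 185-fold in replicate 1 (interval 93.5 to 429) and by 116-fold in replicate 2 (64.4 to 232), a ratio that was called.

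CDKN1B thus made up 51.8% ± 3.36 of the Cip/Kip inhibitor RNA of 38.7 ± 1.59 TPM, CDKN1A 47.9% ± 3.27 and CDKN1C 0.360% ± 0.095. The INK4 inhibitors, which bind only CDK4 and CDK6, summed to 33.7 TPM in replicate 1 and 32.4 TPM in replicate 2. CDKN2D (p19) made up 36.8% of that and averaged 12.2 ± 0.05 TPM, CDKN2C (p18) 34.6% and 11.4 ± 0.18 TPM, CDKN2B (p15) 16.9% and 5.58 ± 0.66 TPM. CDKN2A, the gene of p16 and ARF, made up the remaining 11.7% and averaged 3.86 ± 0.51 TPM. Its count does not separate p16 from ARF. Each INK4 gene was below CDK4, and each was above CDK6, in both libraries.

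The window at the CDKN1B start is shown because it differs from the 3 above in its elements: chr12:12717118-12717417 on the plus strand of GRCh38.p14, with the GC box in capitals.
CDKN1B: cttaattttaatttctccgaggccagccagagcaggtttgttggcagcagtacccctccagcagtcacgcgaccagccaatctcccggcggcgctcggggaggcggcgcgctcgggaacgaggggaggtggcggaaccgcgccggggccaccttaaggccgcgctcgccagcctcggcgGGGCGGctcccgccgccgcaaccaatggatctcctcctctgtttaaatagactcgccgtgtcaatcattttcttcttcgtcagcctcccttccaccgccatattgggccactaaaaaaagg
It held 1 GC box and 3 CCAAT boxes (letters CCAAT, either strand, in 34.6% of all windows), at positions -174, -50 and 30 from the start. G and C made up 62.3% of it. The CDK4, CCNE1 and upstream CDK6 windows held no CCAAT box. The 3 windows of CCND3 held 5, 4 and 0 GC boxes, and their starts lie 1347, 108227 and 110830 bases inside the gene. The other CDK6 window, with a start 2614 bases inside the gene, held no GC box and no E-box. The window listed for RB1 lies 172699 bases inside the gene and was not taken as its promoter.

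RB1 (ENSG00000139687.9, hg19 chr13:48877887-49056122, plus strand, 6169 exon bases), the pocket protein that holds E2F factors in check, was expressed and differed most between the libraries. It had 3445 reads in replicate 1 and 2430 in replicate 2, or 21.1 and 14.9 TPM. Its relatives RBL2 (p130), the pocket protein of resting cells, and RBL1 (p107) had 19.8 and 17.9 TPM, and 11.2 and 9.75 TPM. RB1 stood 1.87-fold above RBL1 in replicate 1 and 1.52-fold in replicate 2, a mean log2 ratio of 0.76 ± 0.21, which was called. RB1 was 1.07-fold above RBL2 in replicate 1 (interval 1.02 to 1.12) and at 0.828 of it in replicate 2 (0.786 to 0.872). The mean log2 ratio of -0.09 ± 0.26 was not called. The 3 pocket protein genes summed to 47.3 ± 6.76 TPM, of which RBL2 made up 40.1% ± 2.96, RB1 37.7% ± 3.91 and RBL1 22.3% ± 0.946.

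**Figure D2:**
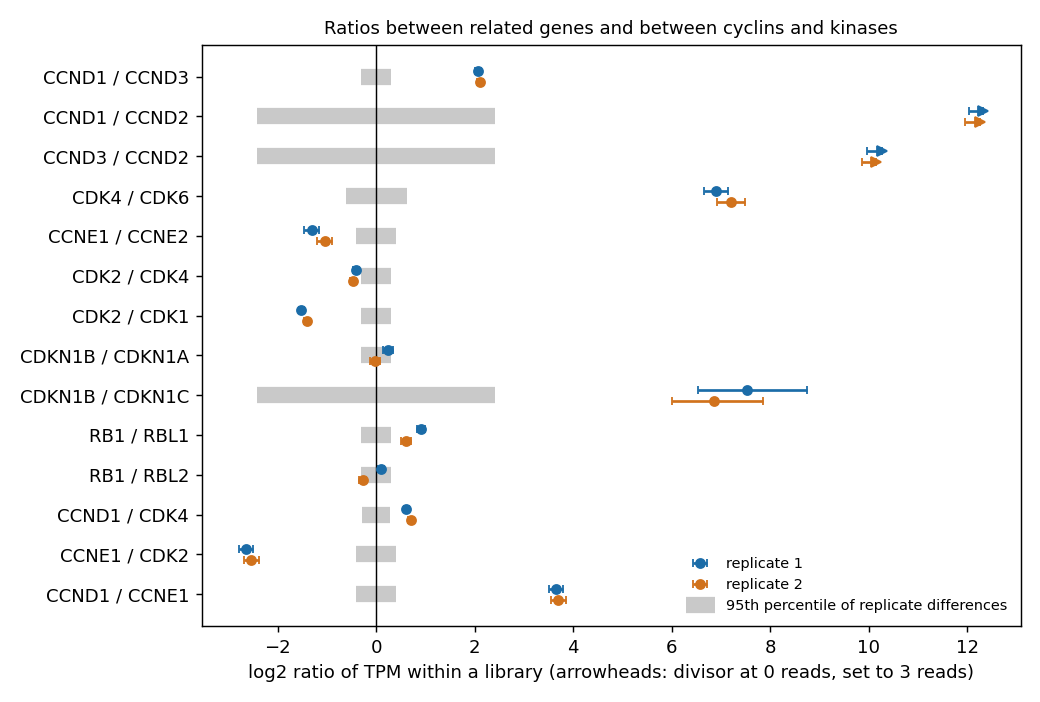
Log2 ratio of TPM for 14 gene pairs, in replicate 1 (blue) and replicate 2 (orange), with exact conditional binomial 95% intervals. Arrowheads mark ratios against CCND2 set at 3 reads. Grey bars span plus and minus the 95th percentile of replicate differences in the CPM range of the lower gene. Of the 14 pairs 12 lie beyond the grey bars, CDK4 to CDK6 at 6.90 and 7.21, while CDKN1B to CDKN1A and RB1 to RBL2 change sides between the libraries.

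In the order of the 10 levels, 7 of the 9 neighbouring pairs were called. The order came from the same levels, so the sorting fixed the direction of each mean ratio. Of the called pairs, CCND1 to CDK4 came to -1.7e-05 with unshared exon bases, and CDK4 to CDK2 lost its call on reads alone. CDKN1B and CCND3 did not differ beyond the spread, at a log2 ratio of 0.09 ± 0.08, and neither did CCND3 and RB1, at 0.08 ± 0.28. The step between RB1 and CCNE2, 0.33 ± 0.09, was called, but was 0.27 and no longer called in replicate 2 alone, and came to -0.33 with unshared exon bases. CDKN1B, CCND3, RB1 and CCNE2 thus form a middle group whose order is not fixed by these libraries, between 12.3 and 21.6 TPM. CCND1, CDK4 and CDK2 were above every gene of that group in both libraries, and CCNE1, CDK6 and CCND2 were below.

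Detected neighbours of the other members were counted as well. All counts of detected neighbours, here and above, stand beside the 60.9% of all protein-coding genes that were detected, as a description. Within 500 kb of CCNE1, 4 of 6 other protein-coding genes were detected, and 2 were above it, URI1, a prefoldin-like chaperone gene, at 17.8 ± 1.29 TPM, and POP4, a subunit gene of ribonuclease P, at 9.95 ± 0.50 TPM. Around RB1, 7 of 8 were detected and 2 were above it, ITM2B at 52.9 ± 5.90 TPM and SUCLA2, a gene of the citric acid cycle, at 22.1 ± 3.45 TPM. Around CCNE2 10 of 10 were detected and 4 were higher on whole exon lengths, around CDK2 34 of 49 and 10, and around CCND3 11 of 17 and 3. Of the 10 members, CCND1 and CDKN1B were thus the 2 that exceeded all their neighbours.

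Several of these genes share exon bases with a neighbour. Counting used no strand option, and by the counter's default reads that fall on such bases are given to neither gene, so the level per length of the genes concerned can be too low. CDK4 shares 1369 of its 3168 exon bases (43.2%) with TSPAN31, a tetraspanin gene on the other strand that itself had 1992 and 1781 reads. CCNE2 (hg19 chr8:95891998-95908906) shares 37.1% of its bases, nearly all with INTS8, an Integrator subunit gene with 4801 and 3787 reads. CDK2 shares 16.8%, mostly with an antisense RNA that had no read, and CCND1 10.3% with LTO1. The other members share under 2%, and CCNE1, CDKN1B and RB1 share none. With unshared bases as length, CDK4 came to 93.6 and 84.1 TPM, CCND1 to 90.8 and 86.7 TPM, CDK2 to 48.5 and 41.6 TPM and CCNE2 to 25.4 and 19.6 TPM. By this measure CDK4 and CCNE2 moved by more than 1.5 times and the other members by less.

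Most genes listed as acting on these members, or as acted on by them, were detected. The counts for these lists, here and below, stand beside the 60.9% of all protein-coding genes detected, as a description. All 10 E2F and DP factors were detected and summed to 191 TPM in replicate 1 and 158 TPM in replicate 2. The highest were E2F1 at 56.7 ± 7.05 TPM, the dimer partner TFDP1 at 36.9 ± 7.33 TPM and E2F4, the main partner of RBL1 and RBL2, at 27.7 ± 2.52 TPM. E2F1 was above RB1 in both libraries. All 15 E2F target genes of the G1/S transition were detected, with a median of 34.6 ± 4.57 TPM. PCNA, the sliding clamp of DNA polymerase, averaged 262 ± 40.1 TPM, and MCM3, a subunit of the replicative helicase, 115 ± 18.0 TPM. MCM4, another helicase subunit, had 93.1 and 80.8 TPM.

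Of the A and B cyclin genes and CDK1, 5 in all, 4 were detected, and the list had a median of 91.2 ± 7.68 TPM. CCNB1, the mitotic cyclin, had 212 and 178 TPM, and CCNB2 had 96.7 and 85.8 TPM. On whole exon lengths both were above CCND1 in each library. For CCNB2 this depends on the length used: CCND1 on unshared bases was at 86.7 TPM in replicate 2. On reads alone CCND1 was higher than CCNB2, at a mean of 260 against 112 CPM. CCNA1, a cyclin known mainly from the germ line, had no read, as CCND2 did.

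All 8 genes of CDK activation were detected, with a median of 16.6 ± 2.04 TPM. The highest were the 3 parts of the CDK-activating kinase, CDK7 at 28.9 ± 4.49 TPM, MNAT1 at 22.2 ± 1.22 TPM and CCNH at 21.1 ± 3.27 TPM. All 10 genes of p27 and cyclin turnover were detected as well, with a median of 19.1 ± 2.14 TPM. CKS1B and SKP2, which together direct CDKN1B to the ubiquitin machinery, averaged 58.6 ± 6.79 and 32.4 ± 5.34 TPM, and CDC34, the ubiquitin-conjugating enzyme that works with SKP2, 32.1 ± 3.70 TPM. Each of these 3 was above CDKN1B in both libraries. AMBRA1, the ubiquitin ligase adaptor of the D cyclins, averaged 16.8 ± 0.796 TPM, and FBXW7, that of cyclin E, 4.04 ± 0.494 TPM. The last 2 were chosen after their values were seen. RBL1 and RBL2 silence cell cycle genes through the DREAM complex. The 6 genes listed for DREAM and MuvB were all detected (median 13.7 ± 2.15 TPM). MYBL2, not itself a part of the silencing complex, led them at 73.2 ± 11.4 TPM. It was followed by RBBP4 at 21.0 ± 3.43 TPM and LIN52 at 17.0 ± 2.66 TPM.

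**Figure D3:**
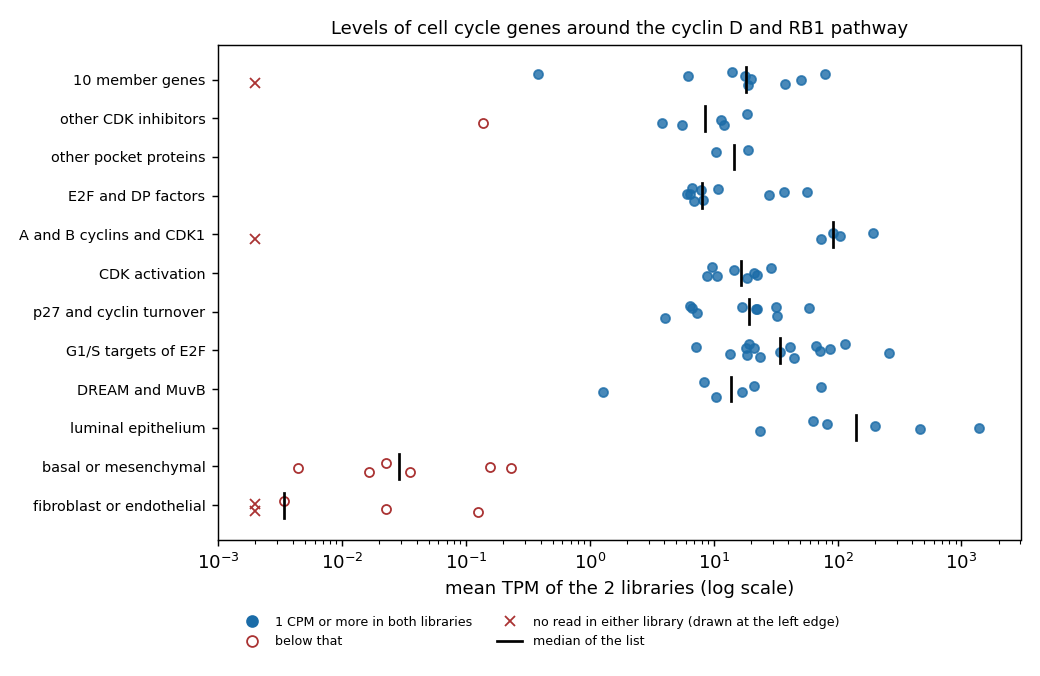
Mean TPM of the 2 libraries on a log axis for each gene of the 10 members and of 11 gene lists; filled circles are genes at 1 CPM or more in both libraries, open circles genes below that, crosses genes with no read, and black bars the median of the points. The members span from 0.385 TPM (CDK6) to 79.6 TPM (CCND1) plus CCND2 at the left edge, while the A and B cyclins with CDK1 that were detected lie between 73.6 and 195 TPM.

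The 2 libraries differed at some of these genes by more than counting error. In an exact two-sided binomial test of replicate 2 against replicate 1, with TMM library scaling and Benjamini-Hochberg adjustment over 14668 genes, 3 of 9 members passed an adjusted p of 0.05, against 39.5% of all genes tested. RB1 and CCNE2 were lower in replicate 2, against 20.6% of genes tested. The members' share was thus close to that of the 14668 genes tested, a share that depends on the filter on low counts. The test compares these libraries, not conditions, and p-values measure counting error only.

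RB1 had 21.1 TPM in replicate 1 and 14.9 TPM in replicate 2, a log2 difference of -0.50 on the TPM scale. With TMM scaling its log2 difference was -0.33 (adjusted p = 1.72e-16, exact binomial test with Benjamini-Hochberg adjustment). That was larger than the difference of 96.6% of genes at 30 to 100 CPM. CCNE2 differed by -0.20 (adjusted p = 0.000505, same exact test) and CCND1 by 0.11, higher in replicate 2 (adjusted p = 1.15e-06, same exact test). The direction for CCND1 depends on the scaling. On the TPM scale the median gene tested differed by -0.18 between replicate 2 and replicate 1, against -0.0026 with TMM, and all 9 members with reads were lower in replicate 2. With TMM 5 of the 9 were, since CCND1, CCND3, CCNE1 and CDK4 turned sign. For CCNE2 and CCND1 the difference was within the 95th percentile of its CPM range, 0.31 and 0.28. The remaining 6 members did not pass: CDK6 differed by -0.29 on 145 and 105 reads (adjusted p = 0.228 in the same exact test), CCND3 by 0.07 and CCNE1 by 0.06, CDK2 by -0.05, CDKN1B by -0.04 and CDK4 by 0.02. CCND2 was not tested.

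Of all genes tested 20.6% passed lower in replicate 2 and 39.5% passed in either direction, and the list counts stand beside these shares as a description. Of 6 DREAM and MuvB genes 5 were lower and 0 higher, of 10 E2F and DP factors 4 and 0, and of the 4 A and B cyclin and CDK1 genes tested 3 and 0. Of 15 G1/S targets 8 were lower and 4 higher, or 9 and 3 with DESeq2 size factors or total counts. Of 10 genes of p27 and cyclin turnover 3 were lower and 1 higher, and of 8 genes of CDK activation 4 and 1. No other CDK inhibitor passed as lower, and 2 of the 5 tested, CDKN1A and CDKN2C, were higher, by 0.23 and 0.21. Near RB1, MED4, a Mediator subunit gene, had 660 and 433 reads, and LPAR6, which lies in an RB1 intron, had 308 and 196.

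**Figure D4:**
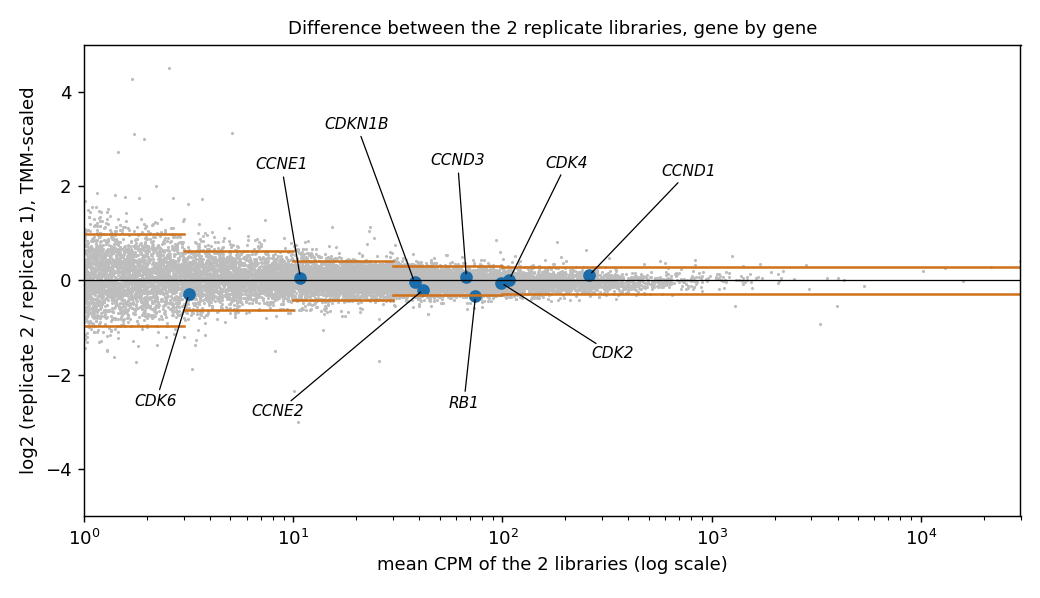
Log2 ratio of replicate 2 to replicate 1 after TMM scaling against mean CPM on a log axis; each grey point is 1 of 14668 genes, blue points are the 9 members tested, and orange lines mark the 95th percentile of absolute differences in each CPM range. RB1 at -0.33 is the 1 member beyond its line; CDK6 at -0.29 lies inside the wider band of genes with few reads.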

How the data were processed

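The deposited table held whole-number counts per gene with no normalization. Per the file headers, the authors used featureCounts 2.0.2 on GENCODE release 19 exons, with no option for strand, pairs, multiple placement or overlap, so mates may be counted singly. HISAT2 and hg19 (GRCh37) are named in the submitters' processing notes; no HISAT2 version is given in the sources used here. Per the labels' protocols the libraries were stranded, depleted of ribosomal RNA and held spike-in RNA, which was not used. Another 8 columns of values match no sample described here and were not used in any step.

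From the deposited counts, CPM was taken over all 57820 genes and TPM with the deposited exon lengths, using Python 3.11.15, numpy 2.4.6, pandas 2.3.3 and scipy 1.17.1. Names came from the identifier tables given with the reference and matched 51996 identifiers (89.9%). Gene types came from GENCODE release 29. Of 95 listed genes 94 were matched by symbol, PECAM1 not. The result for 1 marker gene is not reported here. TMM factors, 1.01 and 0.993, came from edgeR 4.0.16 and alternative size factors from DESeq2 1.42.0. Genes with a mean CPM of 1 or more were tested between libraries with an exact binomial test. Intervals and the floor of 3 reads cover counting error only. The test and the intervals were first tested on simulated counts. Sequences came from RefSeq (GRCh38.p14).

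The text names the 10 members, the genes of 14 pairs, the 3 highest genes of each list and those not detected; neighbours and overlapping genes were named after their values were seen. The members, lists and pairs were chosen with earlier results of these data known.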

Additional observations from a re-analysis of the deposited data

How the results depend on the processing

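No paired analysis was possible because the labels give 1 group. Of 124 values for the 14 pairs and the list detections under an alternative, 116 held. Pairs held if they kept their direction and call, and list detections if they stayed within 1.5 times of their count. Among those that held, the count of members detected went from 9 to 8 at 1 TPM. The 116 also include the 14 pair ratios with exon lengths of Ensembl GRCh37 release 87. Those equalled the main values and could not fail, so they say nothing of how far the ratios hold. The 4 counts of genes differing between libraries ran from 5143 to 6141, against 5798 with TMM and the filter used. With no length scaling CDK2 to CDK4 was -0.13 (log2) and lost its call, RB1 to RBL2 became -0.38 and passed, and CDKN1B to CCND3 and CCND3 to RB1 turned to -0.82 and -0.13. Called ratios moved by over 1.5 times but kept their call for CDK4 to CDK6 (5.10), CCNE1 to CCNE2 (-1.95), CCND1 to CDK4 (1.27), CCNE1 to CDK2 (-3.19) and CCND1 to CCNE1 (4.59). Leaving out 1 library gave -0.023 to 0.25 for CDKN1B to CDKN1A, -0.27 to 0.091 for RB1 to RBL2 and -0.11 to 0.28 for CCND3 to RB1. Exon bases shared with other genes, left out of the lengths by a choice made after seeing the data, gave 7.86 for CDK4 to CDK6, -1.84 for CCNE1 to CCNE2, -1.7e-05 for CCND1 to CDK4 and -0.33 for RB1 to CCNE2. Exon lengths of Ensembl GRCh37 release 87, also added later, were the same for all 10 members. The share of called genes lower in replicate 2 was 52.1% with TMM, 57.5% with DESeq2 size factors and 59.9% with totals, under which CDK4 turned to -0.0010. The same 3 members passed under each scaling and filter. The share of genes passing depended on the filter: 5143 of 10931 genes passed at a mean CPM of 5 or more. With no filter on low counts 6141 of 31838 genes passed. The lists then held 4 lower DREAM and MuvB genes, 3 lower E2F and DP factors, and 6 lower and 3 higher G1/S targets. Of the basal or mesenchymal genes 2 were detected at 0.5 CPM, and 0 to 1 with 1 library left out. On nuclear protein-coding genes alone CCND1 was 284 TPM and CDK6 1.36 TPM. CCND2, with 0 reads, and CDKN1C, with 8 and 11, are limited by depth.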
